A study of Homo sapiens with 2 samples.

Results

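Imprinted genes are transcribed mainly from the copy inherited from 1 parent, and many of them act in fetal growth, placenta and early liver development. They lie in clusters in which a differentially methylated control region, often a promoter or a long noncoding RNA, sets which parental copy is used. PEG10, SGCE, PEG3, DLK1, MEST, PLAGL1, KCNQ1OT1 and SNRPN are known as paternally expressed in human tissue, and MEG3 and CDKN1C as maternally expressed. These 10 genes were taken by symbol from tables of 57820 genes, and their expected counts and TPM values were compared between 2 human liver cancer lines. The tables hold no allele information, so they show levels and not imprinting itself.

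The groups were HepG2, labelled as hepatocellular carcinoma, and SKHEP1, labelled as endothelial cells, each unmodified (WT), grown in the same serum-supplemented medium and represented by 1 library of poly(A)-selected, stranded RNA-seq. The study asked about the long noncoding RNA PURPL in these lines. The HepG2 library held 22477757 expected counts and the SKHEP1 library 19940557. Each line had a single library, so differences have no replicate check and no test was possible. Intervals are 95% exact intervals. They cover counting error only, and amplified reads that carry no molecular identifiers do not count molecules independently. Among 8 hepatocyte markers, 8 reached 10 counts in HepG2 and 1 (SERPINA1) in SKHEP1, and they summed to 49730 TPM in HepG2 and 95.5 TPM in SKHEP1. Among 9 endothelial markers, 4 reached 10 counts in HepG2 and 3 in SKHEP1. They summed to 7.58 TPM in HepG2, mostly ESAM, and 54.8 TPM in SKHEP1, mostly ENG. Of this list, KDR, CLDN5 and ERG had 0 counts in both lines, and CDH5 had 5 in HepG2 and 1 in SKHEP1. ENG had 18 counts in HepG2 and 1926 in SKHEP1, while ESAM had 144 in HepG2 and 16 in SKHEP1. The 9 markers, which differ in direction, thus do not clearly bear out the endothelial label of SKHEP1. Of 5 fibroblast and mesenchymal markers, 1 reached 10 counts in HepG2 and 4 in SKHEP1, summing to 6.40 TPM in HepG2 and 6906 TPM in SKHEP1. PDGFRB made up most of the HepG2 sum (6.14 TPM), and VIM most of the SKHEP1 sum (6798 TPM). While VIM, COL1A1 and COL3A1 were at least 4-fold higher in SKHEP1, PDGFRB went the other way, 1.62-fold higher in HepG2. COL1A2 stayed under 10 counts in both lines. Of 4 blood markers, CD68 alone reached 10 counts in either line. The part of these marker differences in the results was not tested. In bulk RNA, fewer expressing cells and less RNA per cell cannot be told apart.

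Most of the imprinted genes were higher in HepG2. PEG10 had the highest TPM of the set in both lines, well apart from the rest in HepG2 and close to SGCE in SKHEP1. PEG3 and DLK1 were abundant in HepG2 and at 0 counts in SKHEP1. SGCE and MEST lay within 4-fold between the lines, CDKN1C was detected in SKHEP1 alone, and MEG3 had 0 counts in both. An expected count of 10 or more in one of the libraries was reached by 9 genes, and 6 of them exceeded 4-fold in favour of HepG2, against 13.0% of all 15436 genes compared. CDKN1C was the 1 gene at least 4-fold higher in SKHEP1, against 16.5% of all genes. The median log2 ratio of the 9 genes, HepG2 over SKHEP1, was at least 3.60, and that of all genes compared was -0.03. Genes with fewer than 3 counts in one library enter at a floor of 3 counts per library, which is 0.1352 counts-per-million (CPM) in HepG2 and 0.1485 CPM in SKHEP1. For genes at 0 in one line, "at least" gives the observed count of the higher line over this floor, and a counting interval reaches lower. The lower ends of the exact conditional 95% intervals were 5954-fold for PEG3, 746-fold for DLK1, 9.43-fold for PLAGL1 and 5.72-fold for CDKN1C.

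**Figure D1:**
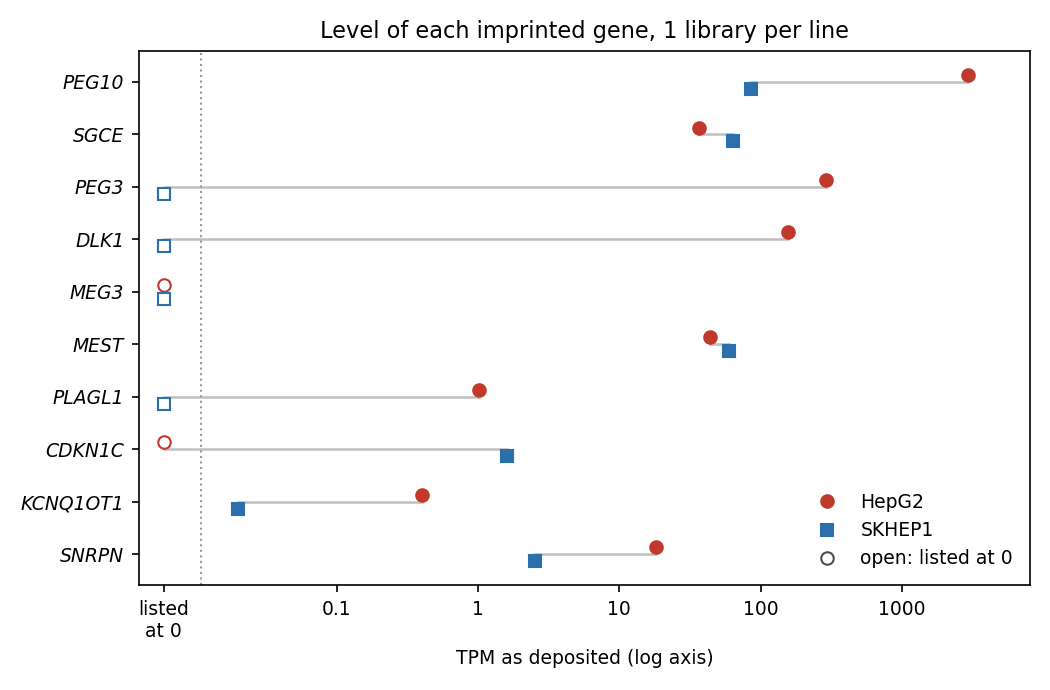
Deposited TPM of each of the 10 imprinted genes in HepG2 (circles) and SKHEP1 (squares), 1 library each, on a log axis, with open symbols for genes listed at 0. PEG10 stands at 2950 TPM in HepG2, while SGCE and MEST lie close together in both lines and MEG3 is at 0 in both.

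TPM scales by transcript length, so it allows levels to be ordered within a line. In HepG2 the order was PEG10 at 2950 TPM, PEG3 at 288, DLK1 at 155, MEST at 43.9, SGCE at 36.4, SNRPN at 18.2, PLAGL1 at 1.01 and KCNQ1OT1 at 0.40 TPM. CDKN1C and MEG3 were listed at 0 there. In SKHEP1 PEG10 led at 85.3 TPM, followed by SGCE at 64.1, MEST at 60.0, SNRPN at 2.53, CDKN1C at 1.61 and KCNQ1OT1 at 0.02 TPM. The other four were listed at 0. The counting intervals of SGCE (60.5 to 67.9 TPM) and MEST (56.9 to 63.2 TPM) overlapped in SKHEP1. In HepG2, MEST (41.5 to 46.4 TPM) lay above SGCE (33.8 to 39.1 TPM). The place of SNRPN holds for its own entry only, since its reads overlap those of SNURF. The larger SNURF entry stood at 126.01 TPM in HepG2 and 32.99 TPM in SKHEP1. The place of KCNQ1OT1 rests on a listed length of 91667 bases, and its 525 counts in HepG2 exceeded the 307.11 of SNRPN.

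Start-site sequence from RefSeq was at hand for 4 of the 10 genes (MEG3, MEST, PLAGL1 and SNRPN), as 17 windows of 300 bases that run from 250 bases before a start to 50 after it. One window per gene is shown, the one with the most matches to TGCCGC, the hexamer read by ZFP57, a zinc finger protein known for keeping imprints. They are shown because imprinted promoters are where such control is known to act, and because the 4 genes include one without counts (MEG3) and one at similar levels in both lines (MEST). Capitals mark the hexamer on either strand (TGCCGC or GCGGCA) and, in MEG3, the cyclic AMP response element TGACGTCA. All are 5′ to 3′ on the gene's strand, build GRCh38.p14.
MEG3, chr14:100825858-100826157, plus strand: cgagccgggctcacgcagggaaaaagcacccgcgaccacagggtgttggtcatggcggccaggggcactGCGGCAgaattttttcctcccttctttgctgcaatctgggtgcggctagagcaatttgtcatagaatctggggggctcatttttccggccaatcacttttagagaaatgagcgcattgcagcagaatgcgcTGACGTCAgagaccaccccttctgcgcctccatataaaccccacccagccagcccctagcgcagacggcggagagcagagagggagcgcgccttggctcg
MEST, chr7:130491835-130492134, plus strand: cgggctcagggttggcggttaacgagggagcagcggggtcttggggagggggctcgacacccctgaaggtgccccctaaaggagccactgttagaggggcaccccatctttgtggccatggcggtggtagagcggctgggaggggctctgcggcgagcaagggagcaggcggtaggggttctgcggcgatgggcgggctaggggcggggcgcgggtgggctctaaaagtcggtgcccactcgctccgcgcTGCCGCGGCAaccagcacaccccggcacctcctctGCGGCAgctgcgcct
PLAGL1, chr6:144008210-144008509, minus strand: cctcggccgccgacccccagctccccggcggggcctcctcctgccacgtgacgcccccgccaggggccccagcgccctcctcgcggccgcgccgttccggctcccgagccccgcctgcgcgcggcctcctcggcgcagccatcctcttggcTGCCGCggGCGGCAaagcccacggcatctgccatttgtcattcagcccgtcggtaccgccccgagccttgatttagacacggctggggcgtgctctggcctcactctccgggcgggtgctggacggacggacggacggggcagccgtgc
SNRPN, chr15:24954737-24955036, plus strand: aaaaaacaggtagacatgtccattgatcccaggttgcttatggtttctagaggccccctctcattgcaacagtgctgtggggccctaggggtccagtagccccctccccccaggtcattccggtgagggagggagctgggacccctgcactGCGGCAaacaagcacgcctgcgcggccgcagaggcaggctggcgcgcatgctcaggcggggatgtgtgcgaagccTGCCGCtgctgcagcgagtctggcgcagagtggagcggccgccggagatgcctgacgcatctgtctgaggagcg

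The hexamer occurred in 10 of the 17 windows of these 4 genes and in 16.7% of all 34943 windows of the table. In the windows shown it matched 1 time in MEG3, 3 times in MEST, where 2 of the matches overlap at the start site, and 2 times each in PLAGL1 and SNRPN. Several windows belong to 1 gene, so the 17 are not independent. The windows shown held 19 CpG dinucleotides in MEG3, 25 in MEST, 39 in PLAGL1 and 18 in SNRPN, the windows picked for a hexamer that itself holds a CpG. Over all 17 windows of these genes the median was 17, against 14 over all windows of the table, and single windows of PLAGL1 and SNRPN held as few as 2. The 3 overlapping MEG3 windows held the cyclic AMP response element, which 1.84% of all windows do. The TATA box letters TATAAA were in 4 of the 17 windows and 11.6% of all, and the YY1 core AANATGGC in 2 of the 17 and 6.57% of all. Both strands were searched for every motif. These are letter matches and not sites, and the hexamer stands in the windows of MEG3, which had no counts, of MEST, which was within 4-fold, and of PLAGL1 and SNRPN, which were higher in HepG2. The SNRPN window is also listed for SNURF.

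**Figure D2:**
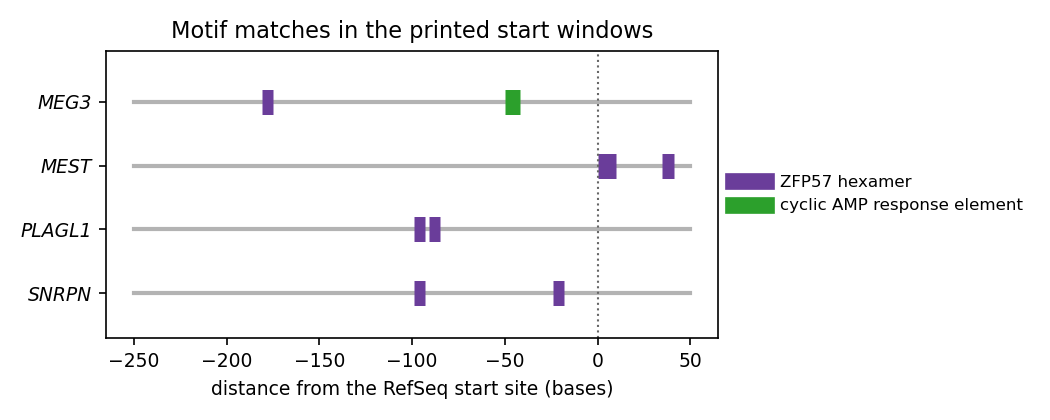
Matches to the ZFP57 hexamer and the cyclic AMP response element in the 4 start windows shown, by distance in bases from the RefSeq start site (dotted line at 0). Each window has at least 1 hexamer match, those of MEST at and just after the start and those of the other 3 genes before it.

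The retrotransposon-derived gene PEG10 encodes gag-like and pol-like proteins made by a ribosomal frameshift, and the mouse gene is needed for the placenta. PEG10 (ENSG00000242265.1, chromosome 7, 4 transcripts in the table) had 144690 expected counts in HepG2, against 3921 in SKHEP1. These are 6522 CPM (6489 to 6556) in HepG2 and 194.1 CPM (188.0 to 200.2) in SKHEP1, a 33.6-fold difference (32.6 to 34.7). It ranked 35 by TPM among all listed genes in HepG2 and 1930 in SKHEP1. PEG10 alone took 0.644% of all counts in HepG2 and 0.0197% in SKHEP1. Together the 10 genes came to 7876 CPM in HepG2 and 324.2 CPM in SKHEP1. In log2 CPM of the 2 libraries, the genes nearest to PEG10 were SERPINA1 at a distance of 1.11, C3 at 1.63 and IGF2 at 2.15. SERPINA1, which encodes the plasma protease inhibitor alpha-1-antitrypsin, stood at 6347 CPM in HepG2 and 89.9 in SKHEP1. No such neighbours could be named for MEG3, which had no counts.

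SGCE, which encodes epsilon-sarcoglycan and lies head to head with PEG10 under a shared imprinted control region, did not follow it. SGCE (ENSG00000127990.11) had 728 expected counts in HepG2, against 1158 in SKHEP1, or 32.8 CPM (30.5 to 35.3) in HepG2 and 57.3 CPM (54.1 to 60.7) in SKHEP1. It was 1.75-fold higher in SKHEP1 (1.59 to 1.92), the opposite direction to PEG10. On the TPM scale PEG10 exceeded SGCE 81.1-fold in HepG2 and 1.33-fold in SKHEP1. Of the nearest protein-coding genes, CASD1, an enzyme that O-acetylates sialic acid, was 1.21-fold higher in HepG2, with 716 counts in HepG2 and 538 in SKHEP1. On the other side PPP1R9A, which encodes the actin-binding protein neurabin, had 890 counts in HepG2, against 190 in SKHEP1, a 4.27-fold difference (3.64 to 5.02). PON3, a liver-expressed lactonase gene further along, had 273 counts in HepG2, against 16 in SKHEP1 (15.5-fold). TFPI2, a protease inhibitor imprinted in placenta, went the other way, at 15 counts in HepG2 and 172 in SKHEP1, 12.6-fold higher in SKHEP1 (7.42 to 23.0).

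PEG3 encodes a large Krüppel-type zinc finger protein. PEG3 (ENSG00000198300.8, chromosome 19) had 24114.97 expected counts in HepG2, against 0 in SKHEP1, and was at least 7321-fold higher in HepG2 against the floor. Its level was 1087 CPM (1073 to 1101) in HepG2, and its 0 counts in SKHEP1 lay under the floor of 0.1485 CPM. The log2 ratio was at least 12.84, or 12.08 with deposited TPM values. The TPM value also rests on the length listed in SKHEP1, which no reads there weighted. ZIM2, a zinc finger gene that shares its first exons with PEG3, had 268.03 expected counts in HepG2, against 0 in SKHEP1. The 2 fractional values sum to 24383.00, a whole number, so RSEM split reads between them. The noncoding MIMT1 of the same cluster had 68 counts in HepG2, against 0 in SKHEP1 (at least 20.6-fold higher in HepG2). USP29, a deubiquitinase gene known mainly from brain and testis, had 0 in both.

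DLK1 encodes a membrane protein with EGF-like repeats, related to Notch ligands and known as a marker of hepatoblasts, the precursors of hepatocytes. DLK1 (ENSG00000185559.9, chromosome 14) had 3024 expected counts in HepG2, against 0 in SKHEP1. This corresponds to 136.3 CPM (131.5 to 141.3) in HepG2, at least 918-fold higher than the floor in SKHEP1. The log2 ratio was at least 9.84, or 8.90 with deposited TPM values, where the length listed in SKHEP1 is again weighted by no reads. Its maternally expressed partner MEG3 (ENSG00000214548.10), a long noncoding RNA with 28 transcripts in the table, had 0 counts in both HepG2 and SKHEP1. These 0 counts lay under the floor of 0.1352 CPM in HepG2 and 0.1485 CPM in SKHEP1, and a counting interval for the level reaches above it. The other noncoding RNAs of the cluster, MEG8, MEG9 and DIO3OS, were also at 0 in both lines. RTL1, a retrotransposon-derived relative of PEG10, had 2 counts in HepG2, against 0 in SKHEP1, and the thyroid hormone deiodinase gene DIO3 had 2 in HepG2 and 3 in SKHEP1. Of the 7 genes of this cluster, DLK1 was thus the 1 that reached 10 counts, in HepG2. The nearest non-imprinted neighbours did not share its difference. WARS, a tRNA synthetase gene, was 1.32-fold higher in SKHEP1, PPP2R5C, a phosphatase subunit gene, 1.17-fold higher in SKHEP1, and WDR25 1.10-fold higher in HepG2. Markers of fetal liver were also higher in HepG2. All 4 (AFP, GPC3, LIN28B and IGF2BP1) were at least 4-fold higher there by counts, against 13.0% of all genes compared. They summed to 7884 TPM in HepG2 and 36.75 TPM in SKHEP1, of which IGF2BP1 held 35.38 TPM. IGF2BP1 was 4.35-fold higher in HepG2 by counts and 3.48-fold by TPM. The part of these markers in the result was not tested.

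MEST encodes a protein of the alpha/beta hydrolase fold family that is induced in growing fat tissue in mice. MEST (ENSG00000106484.10, chromosome 7) had 1291 expected counts in HepG2, against 1380 in SKHEP1, or 58.2 CPM (55.1 to 61.5) in HepG2 and 68.3 CPM (64.7 to 72.0) in SKHEP1. It was 1.17-fold higher in SKHEP1 (1.09 to 1.27), the smallest gap of the 9 genes compared. Its neighbours CEP41, COPG2 and MKLN1 were likewise within 4-fold. CPA4, a carboxypeptidase gene of the same imprinted cluster, had 7 counts in HepG2, against 1058 in SKHEP1, 166-fold higher in SKHEP1 (80.3 to 414). KLF14, a transcription factor gene, was at 1 count in HepG2 and 4 in SKHEP1.

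PLAGL1 encodes a zinc finger transcription factor that restrains the cell cycle and is tied to transient neonatal diabetes. PLAGL1 (ENSG00000118495.14, chromosome 6) had 40 expected counts in HepG2, against 0 in SKHEP1 (at least 12.1-fold higher in HepG2). Its level was 1.80 CPM (1.29 to 2.46) in HepG2. Its neighbours LTV1, SF3B5 and UTRN were also higher in HepG2 but within 4-fold, at 2.85-fold, 2.92-fold and 1.41-fold.

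CDKN1C and KCNQ1OT1 lie in 1 cluster on chromosome 11 and went in opposite directions. CDKN1C, or p57, inhibits cyclin-dependent kinases, and KCNQ1OT1 is a long antisense transcript known to silence CDKN1C and other genes on its own chromosome copy. CDKN1C (ENSG00000129757.8) had 0 expected counts in HepG2, against 21 in SKHEP1, or 1.04 CPM (0.643 to 1.59) in SKHEP1, at least 7.69-fold higher in SKHEP1. This bound lay past 4-fold and short of 8-fold, which does not show that the difference was under 8-fold. The log2 ratio was -2.94 against the floor and -3.66 with a prior count of 2, and the gene would not be compared at a minimum of 50 counts. KCNQ1OT1 (ENSG00000269821.1, a single transcript of 91667 bases) had 525 expected counts in HepG2, against 28 in SKHEP1. This is 23.7 CPM (21.7 to 25.8) in HepG2 and 1.39 CPM (0.921 to 2.00) in SKHEP1, a 17.1-fold difference (11.7 to 26.0). The strand setting of the counting is not given, so reads of KCNQ1 on the opposite strand could be included. KCNQ1 itself, a potassium channel gene, had 1 count in each line. Of the other genes of the cluster, PHLDA2, a maternally expressed gene that restrains placental growth, had 17 counts in HepG2, against 149 in SKHEP1, 9.62-fold higher in SKHEP1 (5.81 to 17.0). The transporter gene SLC22A18 lay within 4-fold, at 79 counts in HepG2 and 99 in SKHEP1, as did its antisense partner SLC22A18AS at 15 in HepG2 and 9 in SKHEP1.

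SNRPN encodes SmN, a core spliceosome protein most abundant in brain and the lead gene of the Prader-Willi domain. SNRPN (ENSG00000128739.16, chromosome 15) had 307.11 expected counts in HepG2, against 42.98 in SKHEP1, or 13.8 CPM (12.3 to 15.5) in HepG2 and 2.13 CPM (1.54 to 2.87) in SKHEP1. It was 6.50-fold higher in HepG2 (4.71 to 9.17). Its reads overlap those of SNURF, which is made from the same transcripts. One SNURF entry had 1916.85 expected counts in HepG2, against 389.02 in SKHEP1, and a second had 10.49 in HepG2 and 0 in SKHEP1. Summed over the 3 entries, an alternative chosen after seeing the data, the locus had 2234.45 expected counts in HepG2, against 432.00 in SKHEP1, a 4.71-fold difference (4.25 to 5.23). SNHG14, the long host transcript downstream, was 4.62-fold higher in HepG2 (4.14 to 5.18). Its 1923.56 expected counts in HepG2 are fractional, as is the sum over the 3 entries there. Reads may thus also be split between SNHG14 and those entries. MKRN3, a ring finger gene of the domain, had 39 counts in HepG2, against 0 in SKHEP1, and ATP10A, a lipid flippase gene, had 20 in HepG2 and 0 in SKHEP1. NDN, MAGEL2 and NPAP1 were at 0 in both lines. UBE3A, a ubiquitin ligase gene imprinted in neurons, was nearly equal, at 2539 counts in HepG2 and 2271 in SKHEP1 (1.02-fold, 0.962 to 1.08).

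**Figure D3:**
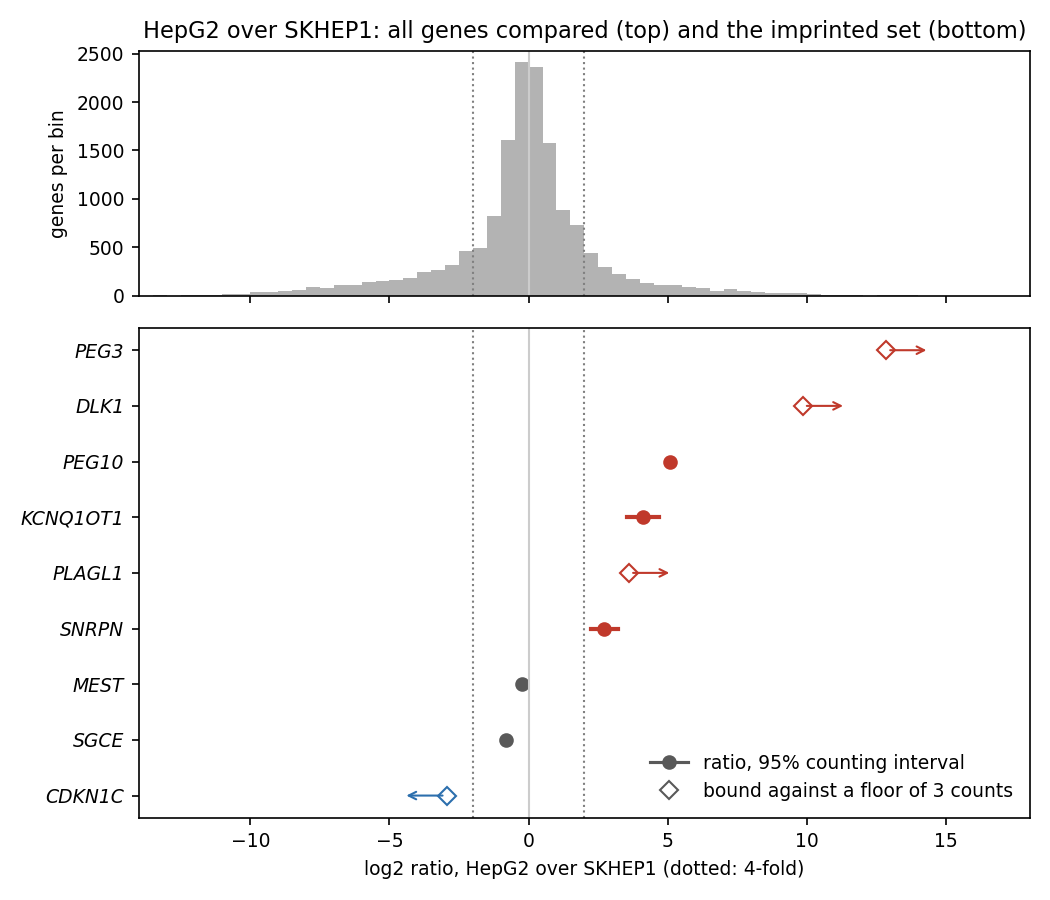
Log2 ratio of HepG2 over SKHEP1 for all 15436 genes compared (top, genes per bin) and for the 9 imprinted genes compared (bottom; lines are 95% counting intervals, open diamonds with arrows are bounds against 3 counts). PEG3 and DLK1 lie far to the right of the 4-fold line, SGCE and MEST inside both lines, and CDKN1C to the left.

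Where a gene had at least 10 counts in both lines, the isoform-weighted length that RSEM lists gives a readout the ratio does not use. PEG10 had a weighted length of 3589.96 bases in HepG2 and 3803.17 in SKHEP1, a difference of -5.61%. MEST went the other way, at 2230.81 bases in HepG2 and 2000.25 in SKHEP1 (11.5%). SNRPN was at 1362.06 bases in HepG2 and 1529.26 in SKHEP1 (-10.9%), a value that the split of reads with SNURF touches. SGCE differed by -2.04%, and KCNQ1OT1 has 1 transcript and cannot differ. Over 10891 genes with several transcripts and at least 10 counts in both lines, the absolute difference had a median of 4.11% and an upper quartile of 10.5%. MEST and SNRPN thus lay slightly above that quartile, in single libraries and with no error known.

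Imprinted genes outside the set did not share 1 direction. A list of 45 other imprinted genes, written from textbook knowledge, matched 43 symbols in 44 table entries, and 28 entries reached 10 counts. At the 4-fold limit, 10 of them stood higher in HepG2, 7 stood higher in SKHEP1 and the other 11 lay inside it. Over all genes compared, 13.0% were called higher in HepG2 and 16.5% in SKHEP1. The median log2 ratio of the 28 entries was 0.63. IGF2, the fetal growth factor gene, had 2426 CPM in HepG2 and 63.7 CPM in SKHEP1 (38.1-fold, 36.0 to 40.3), and its maternally expressed neighbour H19 had 4 counts in each line. IGF2R, the receptor that clears IGF2, was 4.23-fold higher in HepG2 (4.05 to 4.43). In the other direction FAM50B had 0 counts in HepG2, against 278 in SKHEP1 (at least 102-fold higher in SKHEP1). GPR1, a chemerin receptor gene, had 0 counts in HepG2, against 148 in SKHEP1 (at least 54.2-fold higher in SKHEP1). ZDBF2, the gene next to it, was 4.26-fold higher in SKHEP1 (3.12 to 5.92), at 51 counts in HepG2 and 198 in SKHEP1. GNAS, which encodes the stimulatory G protein subunit, lay within 4-fold at 938.12 TPM in HepG2 and 610.92 TPM in SKHEP1, as did the growth factor adaptor GRB10, 2.97-fold higher in SKHEP1.

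**Figure D4:**
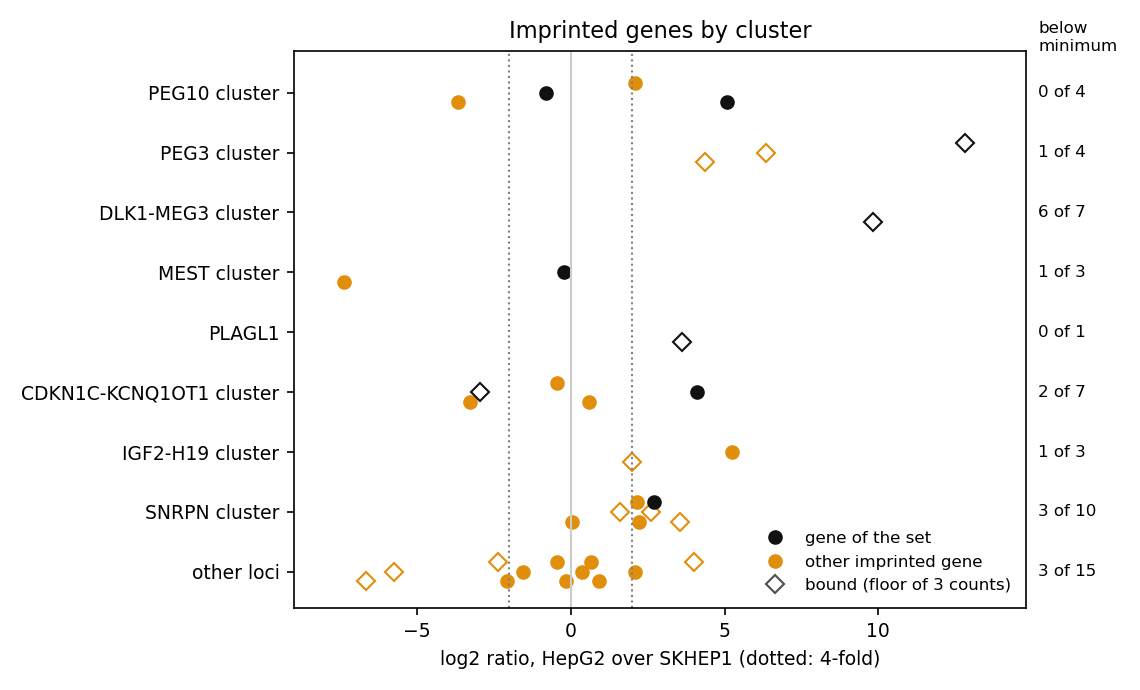
Log2 ratio of HepG2 over SKHEP1 for imprinted genes with at least 10 counts in either line, by cluster (black, the genes described; orange, other imprinted genes; open diamonds, bounds against 3 counts), with the number under the minimum at the right. Of the PEG3, SNRPN, DLK1-MEG3 and IGF2-H19 clusters and PLAGL1, with 1 to 7 entries compared each, none held a gene 4-fold higher in SKHEP1. Over all genes compared, 16.5% were higher there, and some entries of these clusters share reads. The PEG10 and CDKN1C-KCNQ1OT1 clusters have genes on both sides.

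Among 9 relatives of these genes that are not known as imprinted, 7 reached 10 counts. At the 4-fold limit 0 stood higher in HepG2, 2 stood higher in SKHEP1 and 5 lay inside it, against 13.0% of all genes called higher in HepG2 and 16.5% in SKHEP1. LDOC1, a retrotransposon-derived relative of PEG10, had 1 count in HepG2, against 608 in SKHEP1, 668-fold higher in SKHEP1 with a counting interval of 119 to 26409. DLK2, the paralogue of DLK1, had 14 counts in HepG2, against 106 in SKHEP1, 8.31-fold higher in SKHEP1 (4.74 to 15.7). PLAGL2 was 3.93-fold higher in HepG2, just inside the limit. SNRPB, which encodes SmB, the widely expressed counterpart of SmN, was 1.95-fold higher in HepG2, at 726.68 TPM in HepG2 and 393.73 TPM in SKHEP1. Of the CDKN1C relatives, CDKN1A, or p21, was 3.20-fold higher in SKHEP1 and CDKN1B, or p27, 2.28-fold higher in HepG2. Among sarcoglycans, SGCB was 2.65-fold higher in SKHEP1, while SGCA and SGCD were each at 0 counts in HepG2, against 1 in SKHEP1.

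Of 8 factors known to keep imprints, 6 reached 10 counts and none of these passed 4-fold. Over all genes compared, 13.0% were called higher in HepG2 and 16.5% in SKHEP1, so most genes lay within 4-fold. TRIM28, SETDB1, DNMT1, UHRF1, CTCF and ZNF445 were the 6, while ZFP57 and DPPA3, an oocyte and germ cell factor, had 0 counts in both lines. ZNF445, a zinc finger protein that binds imprinted control regions, was 1.91-fold higher in HepG2 (1.72 to 2.12). CTCF, the insulator protein, was 1.65-fold higher in HepG2 and the maintenance methyltransferase gene DNMT1 1.41-fold higher in SKHEP1. The corepressor TRIM28 was at 526.19 TPM in HepG2 and 589.44 TPM in SKHEP1.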

How the data were processed

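RNA-seq gene tables of HepG2 and SKHEP1 were used, 1 library each, grouped by the cell line label. The submitters' processing notes name hg19 as the build and list RSEM, STAR, cutadapt and DESeq2 without versions. Which annotation and strand setting were used is not given in the sources used here. Per the file headers, the deposited tables hold RSEM expected counts, TPM and FPKM, and isoform-weighted lengths.

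Expected counts were rounded and scaled to CPM of the TMM library size with edgeR 4.0.16 (R 4.3.3). The TMM factors were 0.987 for HepG2 and 1.01 for SKHEP1. A gene entered the comparison when its expected count reached 10 in one of the libraries. Counts under 3 were set to a floor of 3 per library, and the call was a ratio of 4 or more. A ratio with 1 to 3 counts in a library is given unfloored in the text. Intervals are exact Poisson for levels and exact conditional Clopper-Pearson for ratios, at 95%. The ratio and calls were run on simulated Poisson counts, which check the code and hold no variation between libraries. Motifs were searched in RefSeq start windows (GRCh38.p14). Gene order and chromosomes came from GENCODE release 29 by stable identifier, whose build differs, so no gene coordinates are given.

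The rule for named genes took all 10 genes, the listed relatives and maintenance factors, the 3 genes nearest to PEG10, and other imprinted genes of the same clusters or past 4-fold with at least 100 counts. GNAS, GRB10 and H19 fall outside it and were chosen after their values were seen. The lists held 45 other imprinted genes, 9 relatives, 8 maintenance factors and markers of hepatocytes, fetal liver, endothelium, mesenchyme and blood. MESTIT1 and HYMAI were not analysed here, and 1 further relative, beside these 9, is not reported here. Protein-coding neighbours, 3 per side, were taken by position after the values were seen. The genes and lists were chosen with earlier results of these data known. Alternatives were total counts, DESeq2 1.42.0 size factors, deposited TPM or FPKM, limits of 2-fold and 8-fold, the lower end of the interval, minimums of 50 and 1, a prior count of 2, unrounded counts and sums of overlapping genes. Scripts ran in Python 3.11.15 with scipy 1.17.1, pandas 2.3.3 and numpy 2.4.6, and figures used matplotlib 3.10.9.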

Additional observations from a re-analysis of the deposited data

How the results depend on the processing

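Under the 4 other scalings, the lower end of the interval, the prior count of 2 and the minimum of 1 count, the counts of genes called in each direction stayed within 1.5 times the values given. A 2-fold limit put 3614 of all genes on the HepG2 side and 3859 on the SKHEP1 side. With a limit of 8-fold, 1258 of all genes and 5 other imprinted genes were higher in HepG2, and 0 genes of the set were higher in SKHEP1. That 0 follows from the bound of CDKN1C, which is short of 8-fold. With a minimum of 50 counts, 0 genes of the set were higher in SKHEP1, since CDKN1C was no longer compared. No log2 ratio of the 9 genes changed sign under any alternative run. With a prior count of 2, the values of genes at 0 in one line were 13.42 for PEG3, 10.43 for DLK1, 4.26 for PLAGL1 and -3.66 for CDKN1C. With deposited TPM the log2 ratio of MEST was -0.45, against -0.23 with counts. Summing SNRPN with SNURF, chosen after seeing the data, gave 2.24 in place of 2.70. Depth limits PLAGL1, CDKN1C and MEG3 most, since levels near 3 counts cannot be told from 0.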

Other observations

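Other transcripts of the Prader-Willi domain, chosen after their values were seen, were mostly undetected in these poly(A)-selected libraries. Of 80 entries named PWAR, PWRN, IPW, SNORD115 or SNORD116, 77 had 0 counts in both lines and 2 reached 10 counts. The noncoding RNA PWAR6 had 255 expected counts in HepG2 and 16 in SKHEP1, 14.5-fold higher in HepG2. SNORD116-20 had 64 in HepG2 and 8 in SKHEP1, 7.29-fold higher in HepG2. Its entry holds 3 transcripts with a listed length of 1236 bases, so these counts need not come from the small nucleolar RNA itself.

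Of 41 protein-coding genes that lie within 3 genes of a gene of the set and are not in it, 21 reached 10 counts. Of these, 5 were at least 4-fold higher in HepG2, 1 was higher in SKHEP1 and 15 lay within 4-fold, against 13.0% of all genes called higher in HepG2 and 16.5% in SKHEP1. The gene higher in SKHEP1 was PHLDA2, and those higher in HepG2 were PPP1R9A, PON1, PON3, ZIM2 and SNURF. Of these, PHLDA2, PPP1R9A, ZIM2 and SNURF are also among the other imprinted genes counted above. ZIM2 and SNURF also share reads with PEG3 and SNRPN. The neighbours called are thus not independent of the imprinted genes, and PON1 had 15 counts in HepG2 and 0 in SKHEP1.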
